A study of Mus musculus with 4 samples.

Results

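Macrophages of the normal spleen and of the normal bone marrow (BM) were compared by small RNA sequencing, with 1 library for each tissue. These are 2 of the 4 libraries of a study of macrophages in MLL-AF9 acute myeloid leukaemia (AML), and they were chosen by their labels as the pair without leukaemia. All mice were C57BL/6J of 6 to 8 weeks. The other pair came from BM and spleen 18 days after mice that had not been irradiated received GFP+ MLL-AF9 leukaemia cells, and it is used here only to set the tissue difference of the leukaemic mice beside that of the normal mice. The labels give no genotype or treatment for the normal mice. They also leave unstated the sort markers, the number of mice pooled and whether 1 set of mice gave both tissues. With 1 library a tissue there is no replicate check, so each statement compares 2 libraries and no p-value is given.

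MicroRNAs (miRNAs) are short RNAs that are cut from a hairpin and guide the silencing of messenger RNAs. The bases near their 5′ end, the seed, pair with the target, so miRNAs with the same seed form a family with overlapping targets. One hairpin can give a miRNA from each of its arms, named 5p and 3p. Macrophages of the splenic red pulp take up old red blood cells, and BM macrophages surround developing erythroblasts and clear their expelled nuclei. In macrophages miR-155 and miR-146a are known for their induction by inflammatory signals, miR-223 for its high level in myeloid cells and miR-142 for its expression across blood cells.

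The normal BM library held 206652 counts and the normal spleen library 435492, so values from the spleen rest on more reads. Of 847 rows of the table, 505 were detected in BM and 680 in spleen, and 92 had 0 counts in both. Levels are counts per 1000000 of the library after scaling (CPM), and a ratio is the log2 of spleen over BM with its 95% exact conditional interval in brackets, which covers counting error only. A count of 0 allows up to 3 counts, or 14.5 CPM in BM and 7.65 CPM in spleen.

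The comparison takes in the 234 rows whose larger count was 30 or more, 233 known miRNAs and 1 predicted one, which held 99.2% of the BM reads and 99.4% of the spleen reads. A miRNA is called higher or lower in spleen when the ratio reached 2-fold and the interval excluded no change. By this rule 72 of 234 (30.8%) were higher in spleen, 83 (35.5%) were lower and 79 were neither, or 66.2% called in all. Of the 158 that reached 30 counts in both libraries, 38 were higher and 54 lower. Another 47 reached 30 counts in the spleen only (34 higher), and 29 in BM only (29 lower). Rows that entered through 1 library only were chosen by the higher count there, so these last counts support nothing. Such rows also support nothing in the counts of lists, families, neighbouring hairpins and arms below. Just inside the minimum, miR-542-3p had 30 counts in BM and 7 in spleen, and miR-504-5p and miR-615-3p each had 30 in spleen against 8 and 10 in BM. Just outside it, miR-381-3p and miR-7687-5p had 29 in BM, and miR-874-3p had 29 in spleen.

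The sequences that follow belong to miRNAs named in the results below, with the seed (bases 2 to 8) in capitals. They are the mature sequences of RefSeq for GRCm38.p6, which were found by name for 198 of the 234 rows compared. The first set was higher in spleen.
miR-155-5p: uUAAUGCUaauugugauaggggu
miR-142a-3p: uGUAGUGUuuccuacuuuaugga
miR-146a-5p: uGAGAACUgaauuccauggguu
miR-181a-5p: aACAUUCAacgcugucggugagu
miR-342-3p: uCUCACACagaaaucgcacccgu
miR-455-3p: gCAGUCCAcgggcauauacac
No seed is shared within this set, so its members belong to separate families.

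The second set was lower in spleen and higher in BM, and it holds 3 pairs with a common seed.
miR-10a-5p: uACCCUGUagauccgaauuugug
miR-10b-5p: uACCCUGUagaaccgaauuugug
miR-99a-5p: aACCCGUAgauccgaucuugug
miR-100-5p: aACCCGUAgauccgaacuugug
miR-30a-5p: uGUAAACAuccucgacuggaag
miR-30e-5p: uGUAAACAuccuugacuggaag
miR-126a-3p: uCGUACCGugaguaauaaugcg
miR-451a: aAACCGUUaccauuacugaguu
miR-206-3p: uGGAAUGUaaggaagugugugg

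The hairpins of these miRNAs lie in different kinds of sequence, on the coordinates of GRCm38 with genes of GENCODE M21. The hairpin of miR-155 (chr16:84714140-84714204, plus strand) overlaps an exon of its host transcript Mir155hg, and that of miR-142a (chr11:87756864-87756927, plus strand) lies in an intron of Mir142hg. The hairpin of miR-146a (chr11:43374397-43374461, minus strand) lies outside the genes of the annotation used. The hairpin of miR-342 (chr12:108658620-108658718, plus strand) lies in an intron of Evl, which encodes a regulator of actin. That of miR-126a (chr2:26591357-26591429, plus strand) lies in Egfl7, a gene of endothelial cells, and that of miR-10b (chr2:74726070-74726137, plus strand) lies in an intron of the Hoxd cluster.

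The most abundant miRNAs of the normal spleen were more dominant than those of the normal BM. The 10 most abundant rows held 57.4% of the spleen reads and 46.9% of the BM reads, and 8 rows in spleen against 12 in BM were enough to hold 50% of the reads. The tissues shared 5 of these 10: miR-92a-3p, let-7d-3p, let-7i-5p and both arms of miR-423. The first of the spleen was miR-92a-3p of the miR-17-92 cluster, with 15.0% of the reads against 7.53% in BM. The first of the BM was miR-423-5p, with 9.92% of the reads against 5.70% in spleen, where it ranked 4. From rank 22 in BM, miR-181a-5p, a miRNA of lymphocyte development, came to rank 3 in spleen, while miR-10a-5p went from rank 7 in BM to 33 in spleen and miR-1a-3p, a muscle miRNA, from 9 to 60. Rows called higher held 16% of the BM reads and 44.3% of the spleen reads, and rows called lower held 34.2% and 5.60%.

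**Figure D1:**
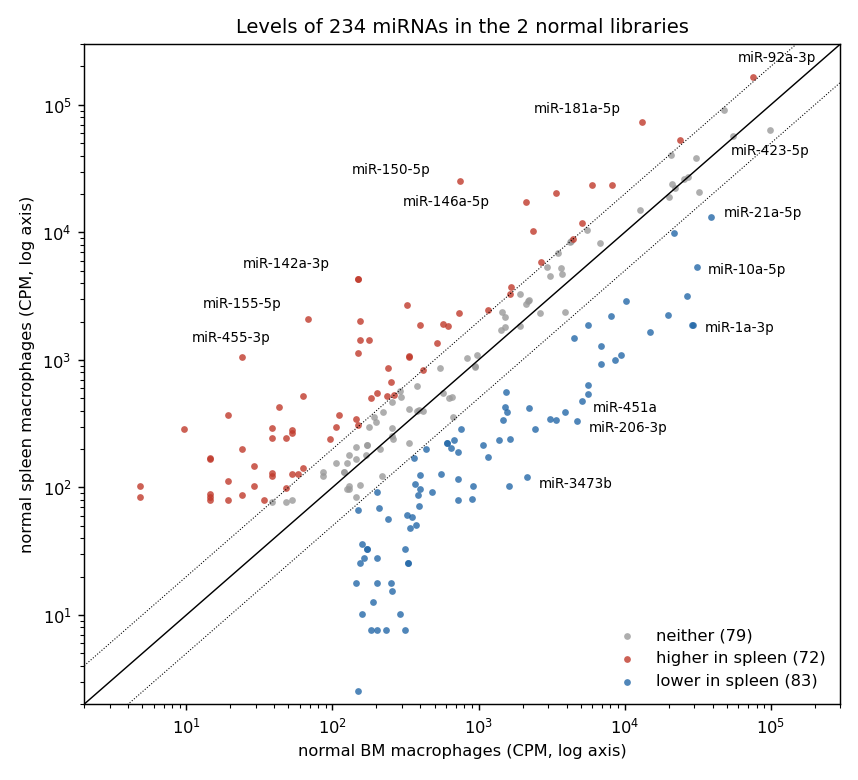
Level of each of the 234 miRNAs in normal BM (horizontal) and normal spleen (vertical), in CPM on log axes, with the line of equal level and dotted lines at 2-fold. Points are coloured by call, 72 higher and 83 lower in spleen, and a count of 0 in BM is drawn at 3 counts.

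Normal spleen macrophages had more of miR-142a, of most lymphocyte miRNAs compared and of the inflammation-linked miR-155-5p and miR-146a-5p. From the inflammation-induced list, miR-21a-5p and miR-9-5p were lower. The strongest single difference by ratio with at least 100 counts was miR-455-3p, with 5 counts in BM and 414 in spleen. Of the haematopoietic list, which holds both arms of miR-142a and of miR-223, 3 of 4 rows were compared, 2 were higher and 1 was lower. The median log2 ratio of the list was 3.05, against 0.19 over all 234, but it is the middle of 3 rows, of which 2 are arms of miR-142a.

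For miR-142a-3p the BM library had 31 counts (149 CPM) and the spleen library 1704 (4346 CPM), and for miR-142a-5p they had 67 and 1047. Both arms were thus far higher in spleen, with ratios of 4.86 [4.35 to 5.42] and 3.05 [2.69 to 3.43]. The myeloid miR-223-3p was close to the counting limit in both, with 10 counts in BM and 28 in spleen, and was not compared. Its other arm, miR-223-5p, had 42 counts in BM and 36 in spleen, a ratio of -1.14 [-1.83 to -0.46], whose call ended with DESeq2 size factors (-0.91). As markers of blood cells, miR-142a and miR-223 together held 0.0726% of the BM reads and 0.646% of the spleen reads, a difference carried by miR-142a. The myeloid miR-223 was scarce in both libraries, with 0.0203% of the BM reads and 0.00827% of the spleen reads from its 5p arm and 0.00484% and 0.00643% from its 3p arm.

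Of the inflammation-induced list, 5 of 12 rows were compared, of which 2 were higher, 2 lower and 1 neither, so the list did not move as one. The library of the BM had 14 counts of miR-155-5p and that of the spleen 824, a ratio of 4.96 [4.21 to 5.84]. For miR-146a-5p, which restrains NF-kB signalling, counts were 437 and 6753, a ratio of 3.03 [2.89 to 3.17]. Its relative miR-146b-5p has the same seed but comes from another locus, in an intron of Mfsd13a on chromosome 19, and had 195 and 347 counts, a ratio of -0.09 [-0.34 to 0.17]. In BM the pair stood at 2107 and 940 CPM, and in spleen at 17223 and 885 CPM. The opposite direction was seen for miR-21a-5p, an abundant miRNA of activated and of many other cells, with 38799 CPM in BM and 13155 CPM in spleen, a ratio of -1.56 [-1.61 to -1.51]. It was joined by miR-9-5p, with 286 and 92 counts and a ratio of -2.56 [-2.91 to -2.21]. The 7 rows not compared had at most 16 counts in either library. The median of the list was -0.09, and its sign turned with DESeq2 size factors.

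Of 12 rows of the lymphocyte list, 7 were compared, 5 were higher in spleen and none was lower, with a median of 2.24. Among all miRNAs compared, 30.8% were higher and 35.5% lower. The BM library had 154 counts of miR-150-5p, a miRNA of mature B and T cells, and the spleen library 9910, which made it the row with the highest ratio of the list at 5.09 [4.86 to 5.33]. Counts of miR-342-3p were 32 and 785, a ratio of 3.70 [3.19 to 4.26], and those of miR-342-5p were 436 and 1079, a ratio of 0.39 [0.23 to 0.55], which was neither. The miR-181 family, which shares 1 seed, was graded: miR-181a-5p stood at 2.47, miR-181b-5p at 1.14 and miR-181d-5p at 0.30. The call of miR-181b-5p ended on total counts (0.99). Reads of the list made up 1.92% (Wilson 95% interval 1.86% to 1.98%) of the BM library and 9.89% (9.80% to 9.98%) of the spleen library. The part of lymphocytes in these values was not tested. In bulk libraries such as these, fewer cells of a type and less RNA per cell cannot be told apart.

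Both arms of miR-5107, which is in none of the lists, were higher in spleen. With 37 and 563 counts miR-5107-5p had a ratio of 3.01 [2.53 to 3.53]. With 0 and 67 counts miR-5107-3p was 11.8-fold higher in spleen when the 0 was set to 3 counts, which is not the lower limit of the interval. The other row called with 0 counts was miR-669a-3p, with 0 in BM and 65 in spleen, 11.5-fold higher by the same rule. Further rows among the 10 highest ratios were miR-185-3p (2 and 113 counts, 4.90 [3.01 to 7.96]), miR-935 (4 and 144 counts, 4.25), miR-28a-3p (9 and 169 counts, 3.31) and miR-15b-5p (32 and 558 counts, 3.21). The first 3 of these rest on fewer than 10 BM reads each, and their intervals are wide.

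**Figure D2:**
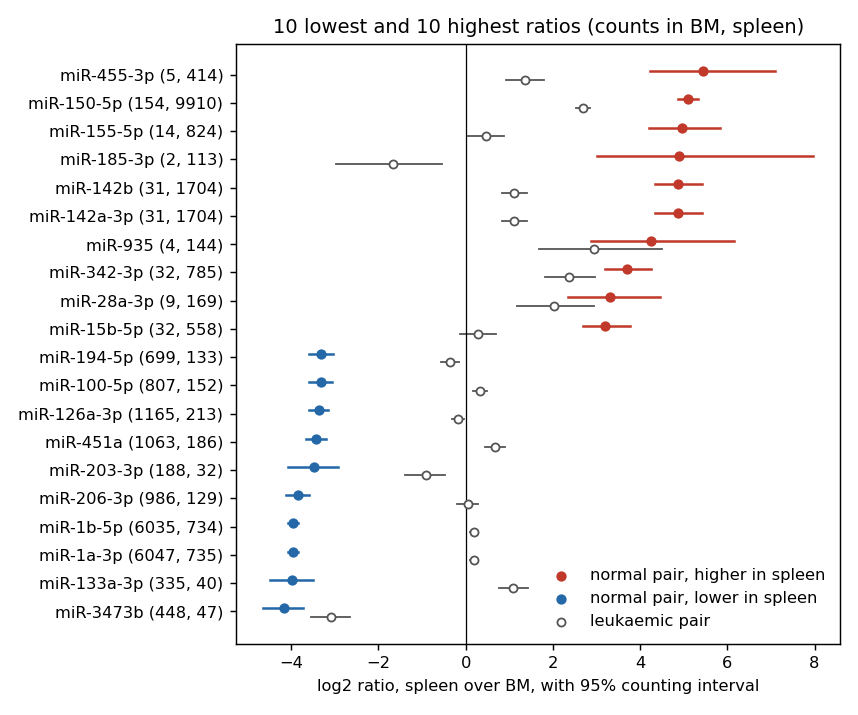
The 10 lowest and 10 highest log2 ratios of spleen over BM among called miRNAs whose larger count was 100 or more, with 95% counting intervals; counts in normal BM and normal spleen stand beside each name. Filled points are the normal pair and open points the leukaemic pair, and open points of miR-185-3p, miR-133a-3p, miR-451a, miR-100-5p, miR-206-3p, miR-1a-3p and miR-1b-5p lie on the other side of 0 from the filled ones.

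Normal BM macrophages had more of the miRNAs that mark non-haematopoietic tissues. Across the stromal, endothelial, muscle, liver and gut, and epithelial lists, 25 of 35 rows were compared, 24 were lower in spleen, none was higher and 1 was neither. Among all miRNAs compared, 30.8% were higher and 35.5% lower. The compared rows of these lists had a median of -3.37. Some of these rows reached the minimum count in BM only, so they were chosen by the higher count there. Such rows support nothing in these counts, or in those of the single lists below. The 16 rows whose larger count was 100 or more all reached the minimum in both libraries. Of these, 15 were lower, with ratios from -3.99 to -2.30. These 5 lists together made up 10.2% of the BM reads and 0.931% of the spleen reads, and how far such cells or their RNA enter either library was not tested. The ratios of all compared members ranged from -5.36 to 0.30. The lower end is that of miR-205-5p, which reached the minimum in BM only, with 65 counts there and 3 in spleen.

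The muscle list had 5 of 6 rows compared and all 5 lower. The BM library had 6047 counts of miR-1a-3p (29160 CPM) and the spleen library 735 (1875 CPM), a ratio of -3.96 [-4.07 to -3.85]. Counts were 986 and 129 for miR-206-3p of skeletal muscle and 335 and 40 for miR-133a-3p, with ratios of -3.85 and -3.99. The row miR-1b-5p has nearly the counts of miR-1a-3p in every library and is not taken as a further member.

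In the stromal list 7 of 9 rows were compared and all 7 were lower. The smooth muscle and fibroblast miRNA miR-143-3p stood at 19887 CPM in BM and 2242 CPM in spleen, a ratio of -3.15 [-3.26 to -3.04]. Its cluster neighbour miR-145a-5p had 221 and 85 counts, a ratio of -2.30, and miR-199a-3p 640 and 136, a ratio of -3.15. Both arms of the endothelial miR-126a were lower, with 1165 and 213 counts for miR-126a-3p, a ratio of -3.37 [-3.59 to -3.16].

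Liver and gut miRNAs were lower in 4 of the 4 rows compared, of 8 in the table. Counts of the hepatocyte miRNA miR-122-5p were 1424 in BM and 367 in spleen, a ratio of -2.88, and those of miR-192-5p were 1793 and 388, a ratio of -3.13. Of the epithelial list, 6 of 7 compared rows were lower, among them miR-200a-3p (1943 and 425 counts, -3.11 [-3.27 to -2.96]), miR-203-3p of skin (188 and 32 counts, -3.47) and miR-205-5p (65 and 3 counts, -5.36). The exception was miR-200c-3p, which has the seed of miR-200b-3p and miR-429-3p but lies on chromosome 6 rather than with them on chromosome 4. The library of the BM had 69 counts of miR-200c-3p and that of the spleen 161, a ratio of 0.30 [-0.11 to 0.73]. The neural list had few reads, with miR-124-3p at 0 counts in both libraries, miR-128-3p at 0.52 (neither) and miR-138-5p, with 3 and 31 counts, higher at 2.45 [0.77 to 4.80]. It leaves out miR-9-5p, which was placed in the inflammation-induced list and was lower at -2.56.

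The erythroid miRNAs did not go together. The BM library had 1063 counts of miR-451a (5126 CPM) and the spleen library 186 (474 CPM), a ratio of -3.43 [-3.67 to -3.21]. Its cluster neighbour miR-144-3p had 27 and 25 counts and miR-144-5p 26 and 4, both below the minimum. The other erythroid hairpin went the other way, with 913 and 3466 counts of miR-486a-5p, a ratio of 1.01 [0.90 to 1.11], whose call ended on total counts (0.85). The rows miR-486a-3p and miR-486b-3p, whose counts are nearly the same in every library, both stood at 1.00 and were neither, and with DESeq2 size factors at 1.24 and 1.23 they were called. Thus miR-451a was higher than miR-486a-5p in BM, and lower in spleen.

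**Figure D3:**
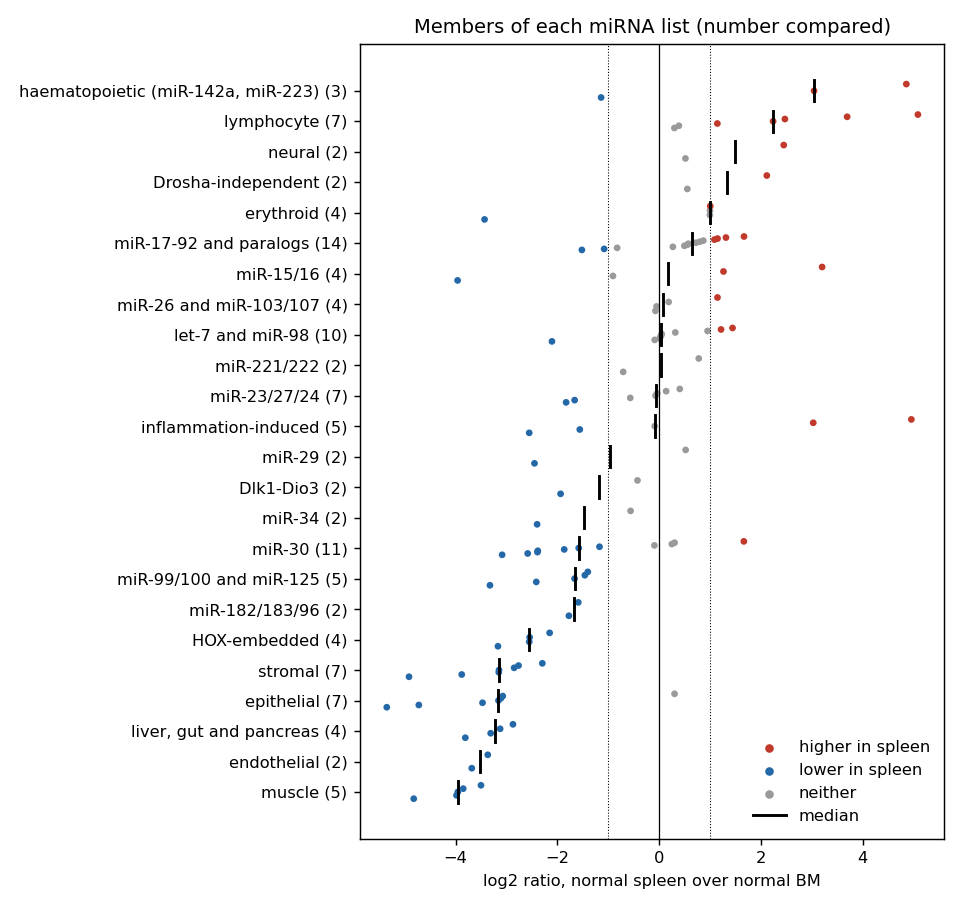
Log2 ratio of spleen over BM for the compared members of each miRNA list, with the number compared in brackets and the list median as a black line. The muscle, endothelial, liver, epithelial and stromal lists have medians near -3 to -4, and the haematopoietic and lymphocyte lists have medians above 2. The medians near -3 to -4 take in rows that reached the minimum count in BM only. The haematopoietic median is over 3 rows, of which 2 are arms of miR-142a.

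HOX-embedded and progenitor-linked miRNAs were higher in BM. All 4 compared rows of the HOX-embedded list, of 8 in the table, were lower in spleen, against 35.5% of all miRNAs compared. One of these rows, miR-10a-3p, with 34 counts in BM and 11 in spleen, reached the minimum in BM only and supports nothing in this count. The share of reads of the list was 4.72% in BM and 0.643% in spleen. The HOXB cluster miRNA miR-10a-5p had 6512 counts in BM (31402 CPM) and 2096 in spleen (5346 CPM), a ratio of -2.55 [-2.63 to -2.48]. For miR-10b-5p counts were 3080 and 647, a ratio of -3.17 [-3.29 to -3.05]. Counts of miR-196b-5p, a miRNA of stem and progenitor cells, were 80 and 34, a ratio of -2.15 [-2.78 to -1.56]. The miR-99/100 and miR-125 families, known from haematopoietic stem cells, had 5 of 5 compared rows lower, from -3.33 for miR-100-5p to -1.40 for miR-125b-5p.

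The miR-30 family was lower in spleen in 7 of 11 compared rows, against 35.5% of all miRNAs compared. Its median was -1.58, but miR-30c-1-3p was higher at 1.67 and 3 rows were neither. The lower rows miR-30c-2-3p (73 counts in BM and 23 in spleen) and miR-30f reached the minimum in BM only. The higher row miR-30c-1-3p (8 and 48 counts) reached it in spleen only. These rows were chosen by the higher count, so they support nothing in these counts. With 5553 counts in BM and 1235 in spleen, miR-30a-5p had a ratio of -3.09, and miR-30e-5p and miR-30c-5p stood at -1.87 and -1.58. In contrast miR-30d-5p, at 12653 CPM in BM and 15045 CPM in spleen, had a ratio of 0.25 [0.18 to 0.32] and became the most abundant row of the family in spleen. The call of miR-30f, with 31 and 26 counts, ended with DESeq2 size factors (-0.94).

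The miR-17-92 cluster and its paralogs, which promote the growth of blood cells, had 4 of 14 compared rows higher, 2 lower and 8 neither, against 30.8% higher and 35.5% lower among all miRNAs compared. Their reads made up 8.38% of BM and 16.2% of spleen, mostly from miR-92a-3p, which stood at 75014 CPM in BM and 166362 CPM in spleen, a ratio of 1.15 [1.12 to 1.17]. This call lies close to 2-fold and ended on total counts (0.99), as did that of miR-106b-3p (0.93). Of the others miR-93-5p was higher at 1.67 [1.42 to 1.93], and miR-20a-5p, with 141 counts in BM and 93 in spleen, was lower at -1.52 [-1.91 to -1.13]. Under DESeq2 size factors miR-25-3p (1.10) and miR-17-5p (1.04) were called too.

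The let-7 family, the largest seed family by reads, was nearly even between the tissues. Its seed took 15.3% of the BM reads and 16.8% of the spleen reads, and of its 9 compared rows 2 were higher and 1 lower. The let-7 list, which adds let-7d-3p with another seed, had 7 of 10 compared rows called neither. Levels of let-7b-5p, let-7c-5p, let-7f-5p and let-7g-5p gave ratios between -0.09 and 0.04. The members that differed were let-7d-5p (1.22) and miR-98-5p (1.44), both higher, and let-7e-5p (-2.11), lower, while let-7a-5p, at 0.95 [0.90 to 1.00], passed 2-fold with DESeq2 size factors (1.19). The median of 0.05 changed sign on total counts. Near-even too were miR-26a-5p, miR-103-3p and miR-107-3p, with ratios of 0.19, -0.07 and -0.05, whereas miR-26b-5p was higher at 1.15, a call that ended on total counts (0.99).

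In the miR-23/27/24 clusters 2 of 7 rows were lower, miR-27b-3p (-1.83) and miR-23a-5p (-1.66), and 5 were neither. Among all miRNAs compared, 35.5% were lower. Neither miR-221-3p (0.78) nor miR-222-3p (-0.71) was called, although both come from 1 locus, and miR-221-3p passed 2-fold with DESeq2 size factors (1.01). Both compared rows of the cluster of miR-182, miR-183 and miR-96 were lower, at -1.59 and -1.77, and miR-34c-5p was lower at -2.40 while miR-34a-5p, which p53 induces, stood at -0.56. Of miRNAs made without the nuclease Drosha, miR-484 was higher at 2.12 [1.98 to 2.26] and miR-320-3p stood at 0.55. In the imprinted Dlk1-Dio3 region only 2 of 41 rows reached 30 counts, of which miR-127-3p was lower at -1.94 [-2.36 to -1.53].

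Some miRNAs with the same seed differed in their tissue ratio. Among the 159 seeds of the compared rows with a sequence, 21 had 2 or more compared members, of which 6 had every member called in the same direction and 3 had members called in both directions. The pairs that follow share a seed and differ elsewhere, and they show how far members of a family could part.
let-7d-5p: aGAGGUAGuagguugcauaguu
let-7e-5p: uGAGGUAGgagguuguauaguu
miR-146a-5p: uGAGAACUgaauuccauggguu
miR-146b-5p: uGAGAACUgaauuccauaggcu
miR-15b-5p: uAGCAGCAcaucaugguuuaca
miR-16-5p: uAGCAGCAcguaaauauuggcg
miR-200b-3p: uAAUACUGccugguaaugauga
miR-200c-3p: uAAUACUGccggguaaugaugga
miR-29a-3p: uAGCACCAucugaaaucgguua
miR-29b-3p: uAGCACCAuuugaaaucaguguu

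Of these, miR-15b-5p had a ratio of 3.21 [2.69 to 3.77] and miR-16-5p one of -0.91 [-1.26 to -0.56], so the member with the higher level was miR-16-5p in BM (665 against 154 CPM) and miR-15b-5p in spleen (1423 against 355 CPM). For miR-29a-3p the ratio was 0.52 [0.40 to 0.64] and for miR-29b-3p -2.45 [-3.13 to -1.82]. Near-identical sequences can exchange reads in counting, so levels of such pairs are uncertain to that extent. Summed over members, the seed AUUGCAC of miR-92a-3p and miR-25-3p took 7.87% of the BM reads and 15.5% of the spleen reads, and the seed ACAUUCA of miR-181 took 1.57% and 7.01%. All rows of the miR-30 list, which includes both arms, took 5.70% and 2.11%, and the seed ACCCUGU of miR-10 took 4.64% and 0.630%. The miR-148a-3p, miR-148b-3p and miR-152-3p group was lower throughout, at -1.14, -1.84 and -3.18.

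Neighbouring hairpins, which can be cut from 1 transcript, went one way together in 10 of 25 groups. Hairpins of compared miRNAs formed these groups within 10000 bases of each other on a strand, of which 4 had every miRNA higher, 6 had every miRNA lower, 3 had both directions and 3 had no call. Among all miRNAs compared, 30.8% were higher and 35.5% lower. In the one-way groups, miR-532-3p and miR-425-3p reached the minimum count in spleen only. There miR-133b-3p, miR-214-3p, miR-200a-5p and miR-182-5p reached it in BM only. Such rows were chosen by the higher count, so they support nothing in these counts. Groups wholly higher were miR-191 with miR-425 (chr9:108568319-108568861), miR-501 with miR-532 on chromosome X, and the 2 loci of miR-181a with miR-181b. Reads of miR-181a and miR-181b cannot be divided between their loci, so those 2 groups rest on the same rows. In the miR-191 group miR-191-5p, named after its value was seen, had 1240 counts in BM and 9179 in spleen, a ratio of 1.97 [1.88 to 2.06]. Groups wholly lower included miR-200a, miR-200b and miR-429 in an intron of Ttll10 (chr4:156053905-156055750, ratios from -4.73 to -3.08), miR-199a with miR-214 in Dnm3os (chr1:162217814-162223477, -3.15 to -2.77) and miR-192 with miR-194 (chr19:6264643-6264932, -3.31 and -3.13). Both arms of miR-199a can also come from a hairpin on chromosome 9, and miR-194-5p from another on chromosome 1. Groups with both directions were miR-17-92 in Mir17hg (chr14:115043671-115044506, -1.52 to 1.31), its chromosome X paralog and miR-30c with miR-30e in Nfyc (chr4:120769534-120772697, -1.87 to 1.67). In the chromosome X paralog the only higher row was miR-92a-3p, whose reads cannot be divided from those of miR-17-92. The higher row in Nfyc, miR-30c-1-3p, reached the minimum count in spleen only.

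The balance between the arms of a hairpin differed between the tissues for many miRNAs, and this measure needs no scaling, since both arms are read in the same library. Both arms were compared for 41 hairpins, and in 18 of them (43.9%) the ratio of 5p to 3p differed at least 2-fold with an interval that excluded no change, 10 toward 3p and 8 toward 5p in spleen. The shift was at least 4-fold in 12 of the 18. In 6 of the 41 the more abundant arm was not the same in both tissues, and 5 of these 6 had a called shift. The exception was miR-877, with 54 and 53 counts of 5p and 3p in BM and 94 and 99 in spleen, a shift of -0.10 [-0.82 to 0.62].

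The largest shift was that of miR-455, whose 3p arm reached the minimum count in spleen only. Its BM counts were 240 for 5p and 5 for 3p, and its spleen counts 68 and 414, so the 5p arm gave 98.0% (Wilson 95% interval 95.3% to 99.1%) of the reads in BM and 14.1% (11.3% to 17.5%) in spleen. The arms were called in opposite directions, -2.74 for miR-455-5p and 5.45 for miR-455-3p, which only miR-340 and miR-139 among the 41 hairpins also showed.
miR-455-5p: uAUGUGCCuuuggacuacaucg
miR-455-3p: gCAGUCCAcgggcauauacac
Toward 3p in spleen were further miR-342 (5p share 93.2% in BM and 57.9% in spleen), miR-185 (97.8% and 74.4%), miR-142a (68.4% and 38.1%) and the abundant miR-423. The last had 20500 counts of 5p and 9862 of 3p in BM but 24826 and 36038 in spleen, a 5p share of 67.5% (67.0% to 68.0%) and 40.8% (40.4% to 41.2%), and a log2 shift of -1.59 [-1.64 to -1.55].

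Toward 5p in spleen the largest shifts were those of miR-149, miR-139, miR-674, miR-150 and miR-145a. Of these, miR-149-3p and miR-145a-3p reached the minimum count in BM only, and both arms of miR-674 in spleen only. For miR-139, hosted by the phosphodiesterase gene Pde2a, BM counts were 1703 for 5p and 938 for 3p and spleen counts 9245 and 583. Its 5p share was thus 64.5% in BM and 94.1% in spleen, with miR-139-5p higher at 1.52 and miR-139-3p lower at -1.61. The 5p share of miR-150 was 65.0% in BM and 93.0% in spleen, and that of let-7d 8.51% and 17.3%. Other hairpins kept their balance closely: miR-10a gave 99.5% of its reads from 5p in both, and miR-17 gave 59.8% and 61.1%.
miR-139-5p: uCUACAGUgcacgugucuccag
miR-139-3p: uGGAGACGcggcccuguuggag
miR-423-5p: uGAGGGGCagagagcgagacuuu
miR-423-3p: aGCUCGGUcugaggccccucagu

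**Figure D4:**
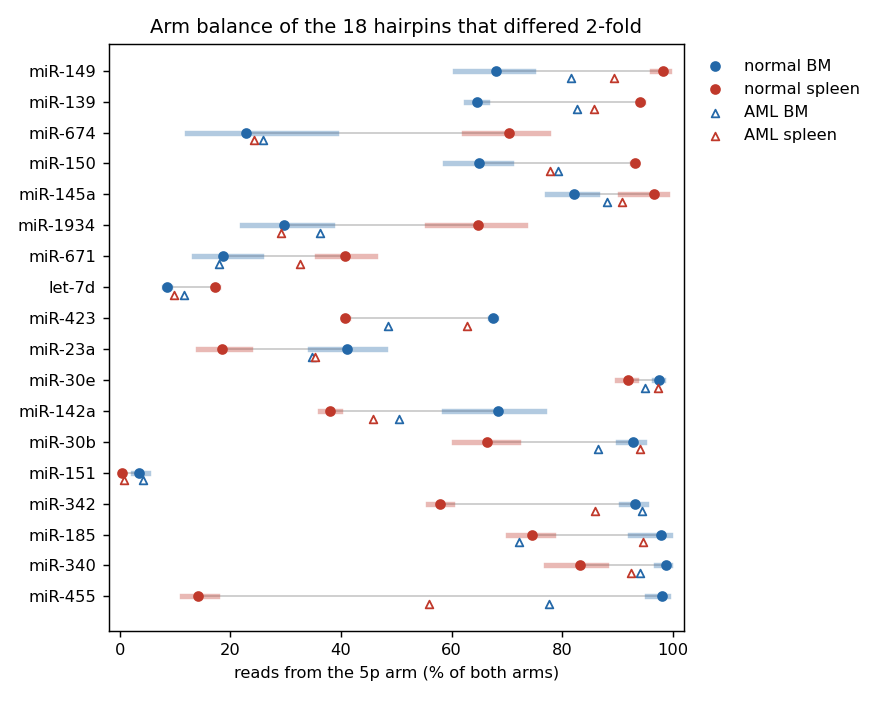
Share of the reads of a hairpin that came from its 5p arm, in percent, for the 18 hairpins whose balance differed 2-fold between normal BM (blue points) and normal spleen (red points), with Wilson 95% intervals as bars. Triangles give the leukaemic libraries, which lie between the normal values for 12 of the 18. The hairpins were chosen by the distance between the normal values, which favours this.

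Set beside the leukaemic mice, the tissue difference of the normal mice was the wider one. Of 211 miRNAs compared between AML spleen and AML BM by the same rule, 74 (35.1%) were called, 29 higher (13.7%) and 45 lower (21.3%). The AML BM library held 271209 counts and the AML spleen library 180227. The pairs share no library, and 199 miRNAs were compared in both. The log2 ratios had a standard deviation across these miRNAs of 2.11 in the normal pair and 1.23 in the leukaemic pair, and their Pearson correlation, a description over miRNAs that are not independent, was 0.323. Of 56 miRNAs higher in normal spleen, 16 were higher in AML spleen too, 5 were lower and 35 were neither. Of 68 lower in normal spleen, 12 were lower, 5 higher and 51 neither in the leukaemic pair.

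Of the 7 compared rows of the lymphocyte list, 3 were higher and 2 lower in AML spleen, against 5 higher and 0 lower in normal spleen. Leukaemic ratios were 2.68 for miR-150-5p, 2.82 for miR-150-3p and 2.37 for miR-342-3p, all higher, and -1.27 for miR-181b-5p and -3.14 for miR-181d-5p, both lower. Neither miR-342-5p (0.92) nor miR-181a-5p (-0.14) was called there. That of miR-5107-5p was 4.36 there, where the AML BM library had 38 counts and the AML spleen library 537. The lower level of miR-3473b in spleen also recurred, with 448 and 47 counts in the normal pair (-4.17) and 581 and 47 in the leukaemic pair (-3.09), as did that of miR-196b-5p (-4.75 there). In contrast the 5 tissue lists had a median of -3.37 in the normal pair, which takes in rows that reached the minimum in BM only. In the leukaemic pair 1 of their 18 compared members was called, and their median was -0.15. They made up 5.60% of the reads of AML BM and 5.57% of those of AML spleen. The difference between the pairs for miR-155-5p was -4.49 (counting interval -5.36 to -3.63), from 100 counts in the AML BM library and 95 in the AML spleen library. For 42 of the 72 miRNAs higher and 62 of the 83 lower in normal spleen, both leukaemic libraries lay between the normal libraries. These miRNAs were chosen by the distance between the normal libraries, which favours such a position, so these counts support nothing.

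**Figure D5:**
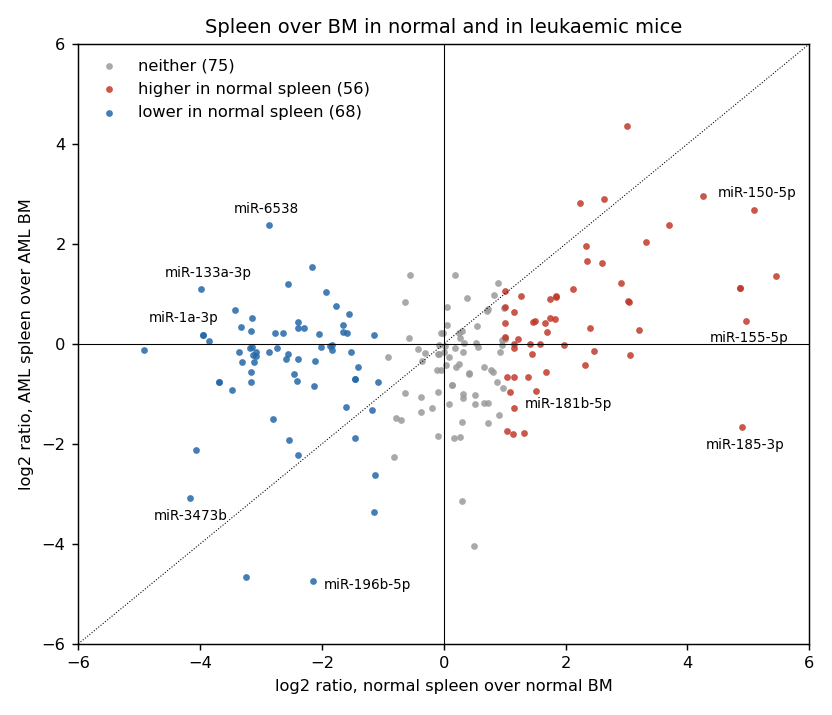
Log2 ratio of spleen over BM in normal mice (horizontal) and in leukaemic mice (vertical) for the 199 miRNAs compared in both, coloured by the call in the normal pair, with the line of equal ratios dotted. The ratios spread more widely in the normal pair (standard deviation 2.11) than in the leukaemic pair (1.23).

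The number of calls, more than the named ratios, depended on scaling. Against TMM, all log2 ratios of the normal pair moved by 0.24 with DESeq2 size factors, 0.18 on totals without the 10 most abundant miRNAs, 0.096 with TMM over the pair alone and -0.16 on total counts. The split of 72 higher and 83 lower became 86 and 78, 84 and 78, 79 and 82, and 59 and 84 in the same order, so which direction had more calls turned in 2 of these 4.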

How the data were processed

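Small RNA of macrophages from normal and leukaemic BM and spleen was sequenced, 1 library each. Per the file headers, the authors deposited for each miRNA a read count and a TPM value in every library. The deposited TPM equals the count per 1000000 of the library total and was not used further. For the aligner, counting rules, build and annotation of the authors: not given in the sources used here.

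Counts were scaled by TMM (edgeR 4.0.16, R 4.3.3) over the 4 libraries. Ratios, arm balance and exact conditional 95% intervals were computed from the counts in Python 3.11.15 with scipy 1.17.1, and a 0 entered a ratio as 3 counts. These steps were tested on simulated counts. Shares have Wilson intervals. PCR reads without molecular identifiers are not independent molecules, so intervals cover counting error only. Rows were joined to mature sequences and hairpins of RefSeq by name, and to host genes of GENCODE M21 by GRCm38 coordinates. A set of 7 rows has nearly the counts of another row in every library (within 3% or 2 counts).

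The miRNAs named are members of the lists, the 10 highest and 10 lowest ratios with at least 100 counts, the 10 most abundant of each library, called rows with 0 counts, the 5 largest arm shifts each way, the 10 seed families with most reads, rows opposite in the leukaemic pair and the 3 nearest the minimum on each side. Members and lists were chosen with earlier results of these data known. Alternatives were DESeq2 1.42.0 size factors, other scalings, minimum counts and folds, and rows left out.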

Additional observations from a re-analysis of the deposited data

Results flagged for a closer look

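For 10 miRNAs the called difference between spleen and BM had opposite directions in normal and in leukaemic mice. Their number was 7 on total counts, 4 with a minimum of 100 counts and 1 at 4-fold. With 1 library a group the difference between the pairs was not tested over replicates, and the intervals on it cover counting error only. Lymphocyte-linked miR-181b-5p was higher in normal spleen (348 counts in BM and 1455 in spleen, log2 ratio 1.14) and lower in AML spleen (956 and 272 counts, -1.27), a difference between the pairs of -2.42 (-2.68 to -2.16), and on total counts its normal ratio was below 2-fold (0.99). Muscle-linked miR-133a-3p was lower in normal spleen (335 and 40 counts, -3.99) and higher in AML spleen (129 and 189 counts, 1.09), a difference of 5.08 (4.50 to 5.65). Of the inflammation list, miR-9-5p went from -2.56 to 1.20 (286 and 92 against 170 and 268 counts), and of the Dlk1-Dio3 region miR-127-3p went from -1.94 to 1.04 (150 and 74 against 124 and 176 counts).

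The other 6 rest on fewer reads. For miR-185-3p the ratio was 4.90 in normal mice (2 and 113 counts) and -1.67 in leukaemic mice (37 and 8 counts), a difference of -6.57 (-8.87 to -4.27). For miR-18a-3p of the miR-17-92 cluster the ratios were 1.31 and -1.78, with 6 counts in AML spleen. Ratios of miR-1306-3p were 1.14 and -1.81, and those of miR-664-5p were 1.04 and -1.74, and on total counts the normal ratio of each fell below 2-fold (0.98 and 0.89). In the other direction, miR-881-3p went from -2.16 to 1.54 and miR-6538 from -2.86 to 2.37.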

How the results depend on the processing

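No paired analysis was possible because each group has 1 library, and for the same reason no replicate could be left out. With a minimum of 1 count, 159 miRNAs were lower, 259 were called and 48 had the same call in the leukaemic pair. With a minimum of 100 counts these numbers were 47, 96 and 14, and 9 hairpins differed in arm balance. At 4-fold, 35 were higher and 97 were called. Without the 7 repeated rows, 71 were higher and 80 lower of 227. Medians of 9 lists changed sign under some alternatives, most of them near 0, but also those of neural (1.48), erythroid (1.00) and miR-29 (-0.97), which have 2 to 4 compared rows; the cause was not tested. The inflammation and miR-23/27/24 lists had medians of 0.15 and 0.17 with DESeq2 size factors, 0.096 and 0.11 without the 10 most abundant miRNAs, and 0.0084 and 0.025 with TMM over the pair. On total counts the let-7, miR-221 with miR-222, and miR-26 with miR-103 and miR-107 lists had medians of -0.11, -0.12 and -0.088, and with the 5 tissue lists left out, chosen after seeing the data, -0.046, -0.055 and -0.023. With a minimum of 1 count, medians were 0.11 for inflammation, -0.016 for erythroid, -0.41 for neural, 0.081 for miR-29, -0.59 for miR-221 with miR-222 and -0.71 for miR-15/16. With 10 counts they were -0.016 for erythroid, 0.16 for miR-29 and -0.59 for miR-221 with miR-222, and with 100 counts 0.52 for miR-29. Over the other scalings and the settings with rows left out, 833 values of single named miRNAs kept their direction and call, 19 lost the call and 19 gained it. Single named miRNAs were not followed in this way at 4-fold or at other minimum counts. Of all calls, 58 ended at 4-fold and 59 with a minimum of 100 counts. With 14.5 CPM as the limit of a count of 0 in BM and 7.65 CPM in spleen, absence from BM is the less certain.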

Other observations

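Outside every list, 117 miRNAs were compared, of which 50 were higher in spleen and 28 were lower, with a median log2 ratio of 0.73 against 0.19 over all 234. Over all 234, 30.8% were higher and 35.5% lower. The lists were chosen with earlier results of these data known, and rows that entered through 1 library only are included. These counts therefore support nothing. By sequence, miRNAs higher in spleen had a median GC content of 52.6% (59 with a sequence) and those lower 45.5% (70). A U as first base was found in 22 of the 59 higher, 38 of the 70 lower and 33 of the 69 called neither. Across miRNAs, which share both libraries and are not independent, the Pearson correlation of GC content with the ratio was 0.0912.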
